A study of Macaca fascicularis with 56 samples.

Results

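Whole blood taken at 4 h was compared with whole blood taken at 0 h in the 6 cynomolgus macaques (Macaca fascicularis) of the LR12 arm. These 12 arrays, out of 56 in the series, were chosen by their arm and hour labels and paired by the number of the animal, Y31309 to Y31314. The arm carries the label LR12, and the series title places the LR12 treatment after an endotoxin challenge. The series held 14 animals with 1 array each at 0, 2, 4 and 8 h: 6 in the LR12 arm, 4 in a peptide control arm given LR12-scrambled and 4 in a vehicle arm. Doses, ages, the place of hour 0 in the protocol and endotoxin in the vehicle animals are not stated in the labels, and LR12 animals at 0 h served as their own baseline.

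Endotoxin is the lipopolysaccharide of Gram-negative bacteria. It is bound by CD14 and by LY96 (MD-2) together with TLR4 on monocytes and neutrophils, which then switch on NF-kB target genes and, through interferon, antiviral and antigen-handling genes. TREM-1 is a receptor on neutrophils and monocytes that signals through the adaptor TYROBP and amplifies responses to Toll-like receptors. LR12 is a peptide taken from TREML1, a relative of TREM-1 on platelets, and acts as a decoy that keeps ligands away from TREM-1. During endotoxemia neutrophils leave the bone marrow and lymphocytes leave the blood, so the RNA of whole blood mixes changes within cells with changes in which cells are present. In such bulk samples fewer cells of a type and less RNA per cell cannot be told apart.

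The probes are those of a human genome array, so levels are compared for 1 gene between hours and never between genes. All levels below are log2 of the deposited signal, and all changes are log2 differences, 4 h minus 0 h, unless another pair is named. The middle of the arrays moved: the array median was 3.94 ± 0.24 at 4 h and 4.21 ± 0.20 at 0 h (log2, SD, n = 6), lower at 4 h in 5 of 6 animals (exact paired permutation test, two-sided, p = 0.0625). The 20th percentile of an array was 1.78 at 4 h and 2.25 at 0 h on average, and it was lower at 4 h in 6 of 6 animals (exact p = 0.03125, the smallest that 6 pairs allow). Array controls for RNA integrity also differed between the hours. The GAPDH probe sets of the 3' end exceeded those of the 5' end by 0.68 at 4 h and by 1.21 at 0 h, less at 4 h in 6 of 6 animals (exact p = 0.03125), whereas the same difference for actin was 1.92 at 4 h and 1.73 at 0 h (exact p = 0.34375). The Bacillus subtilis control probe sets were high (above 9.2) on the 4 h arrays of Y31310 and Y31311 and on the 0 h array of Y31310, and low on the other 9. The labels give no reason for this split. With the control level as a covariate, 7194 genes were called between 4 h and 0 h.

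The LR12 animals differed at 4 h from their own 0 h blood in 6876 of 16020 genes tested (limma with the animal as a block, adjusted p below 0.05), which is 42.9% of the genes. Of these, 2087 genes rose (13.0% of those tested) and 4789 fell (29.9%). The median change of all genes was -0.29, so the split leans to falls as deposited. With each array centred on its own median, the median change was -0.02, 2936 genes rose (18.3%) and 3397 fell (21.2%), together 39.5%. The share of rises among called genes was 30.4% as deposited and 46.4% after centring. Every one of the 2087 rises was also called after centring, 3397 falls were called under both scalings, and no gene was called in opposite directions. Changes given for lists are therefore also stated relative to the median of all genes. The 4 h and 0 h values did not overlap for 3104 genes (19.4%), and 5658 called genes moved in the call's direction in 6 of 6 animals. Changes of at least 2 were found for 275 rises and 714 falls. With only the 4 animals whose array controls were low at both hours, 5534 genes were called (1706 rises and 3828 falls).

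The changes of the 6 animals were positively and moderately correlated. Across the 16020 genes, which are not independent replicates, the changes of pairs of animals correlated at 0.400 to 0.543 (15 pairs, median 0.491), a description with shared chip and depth behind it. The median change of the called rises lay between 0.755 in Y31314 and 1.06 in Y31310, and that of the called falls between -0.893 in Y31314 and -1.38 in Y31312. Y31314 thus had the smallest changes in both directions. Of the genes called up, 94.8% to 98.3% had risen in any 1 animal. The called genes were chosen by their change in these same 6 animals, so these medians and shares do not measure agreement. The SD was smaller at 4 h than at 0 h for 59.8% of the rises, for 29.4% of the falls and for 43.4% of all genes tested. In both directions the hour with the lower level thus more often had the larger SD. Genes were sorted by direction, so effects of level and of hour on the spread cannot be told apart here.

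Genes of neutrophil granules and of activated phagocytes were among the largest rises. OLFM4, the olfactomedin of specific granules in a subset of neutrophils, stood at 11.89, 11.20, 12.35, 12.28, 12.52 and 12.67 at 4 h, against 3.66, 3.37, 4.80, 4.81, 5.04 and 4.43 at 0 h, in the order of the animal numbers. Every 4 h value lay above every 0 h value, and the change was 7.80 ± 0.86 (SE, adjusted p = 2.7e-09). This SE, like the others given for changes, comes from the model fitted to the arrays of all arms and hours. It therefore also reflects spread among the control animals. The SD of the OLFM4 changes was 0.36 in LR12 animals, 2.07 in peptide control animals and 5.10 in vehicle animals. PI3, which encodes the elastase inhibitor elafin, reached 13.70, 13.65, 13.78, 12.64, 12.41 and 13.76 at 4 h, against 4.68, 6.36, 4.98, 5.04, 6.98 and 7.04 at 0 h. Its groups were likewise far apart, with a change of 7.48 ± 0.78. CRISP3, a matrix protein of specific granules, averaged 11.80 ± 0.54 at 4 h and 5.21 ± 1.43 at 0 h (SD, n = 6). LTF, the iron-binding lactoferrin of the same granules, averaged 13.09 ± 0.32 at 4 h and 8.03 ± 1.14 at 0 h. MMP8, neutrophil collagenase, averaged 9.19 ± 0.43 at 4 h and 4.53 ± 0.71 at 0 h. These 3 granule genes changed by 6.59, 5.06 and 4.66.

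FCGR1A, the high-affinity IgG receptor CD64 of activated neutrophils and monocytes, stood at 11.96, 11.53, 11.22, 12.02, 11.92 and 10.82 at 4 h, against 5.94, 6.13, 5.92, 5.90, 6.21 and 5.25 at 0 h. Both hours held a narrow range, and Y31314 was lowest at both. The change was 5.69 ± 0.59 (adjusted p = 3.44e-10). CHI3L2, a chitinase-like protein without enzyme activity, averaged 11.74 ± 0.33 at 4 h and 6.12 ± 0.47 at 0 h, a change of 5.63. LGALS12, a galectin expressed in myeloid and fat cells, averaged 9.89 ± 0.49 at 4 h and 4.40 ± 0.75 at 0 h, a change of 5.49. INHBA, the subunit of the TGF-beta family ligand activin A, averaged 11.64 ± 0.51 at 4 h and 6.43 ± 0.64 at 0 h, a change of 5.21. CA4, a membrane-bound carbonic anhydrase, had 9.68, 9.10, 10.10, 10.12, 10.47 and 10.97 at 4 h, against 2.64, 5.08, 4.43, 4.31, 5.38 and 7.54 at 0 h. The animals differed more at 0 h than at 4 h, and Y31314 began highest. SLC39A8, the zinc importer ZIP8 and an NF-kB target, had 11.88, 12.13, 11.38, 12.45, 12.07 and 11.995 at 4 h, against 7.06, 5.79, 6.20, 6.38, 7.54 and 8.56 at 0 h. Of its 6 kept probe sets, 5 rose together and 1 went the other way, with changes between -0.96 and 5.48. The other 3 of the 14 largest rises were XPNPEP2 (an aminopeptidase, 4.92), CREB3L1 (a membrane-bound transcription factor, 4.82) and MR1 (which presents microbial vitamin B metabolites to MAIT cells, 4.74). The other kept probe set of CREB3L1 changed by only 0.13, so its large rise rests on 1 of 2. The 5 kept probe sets of MR1 changed by 0.22 to 4.74. MARCO, a scavenger receptor of phagocytes, stood at 9.17 ± 0.84 at 4 h and 1.41 ± 0.37 at 0 h. Its 0 h values lay below the 20th percentile of the arrays, so the size of its rise is not defined.

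**Figure D1:**
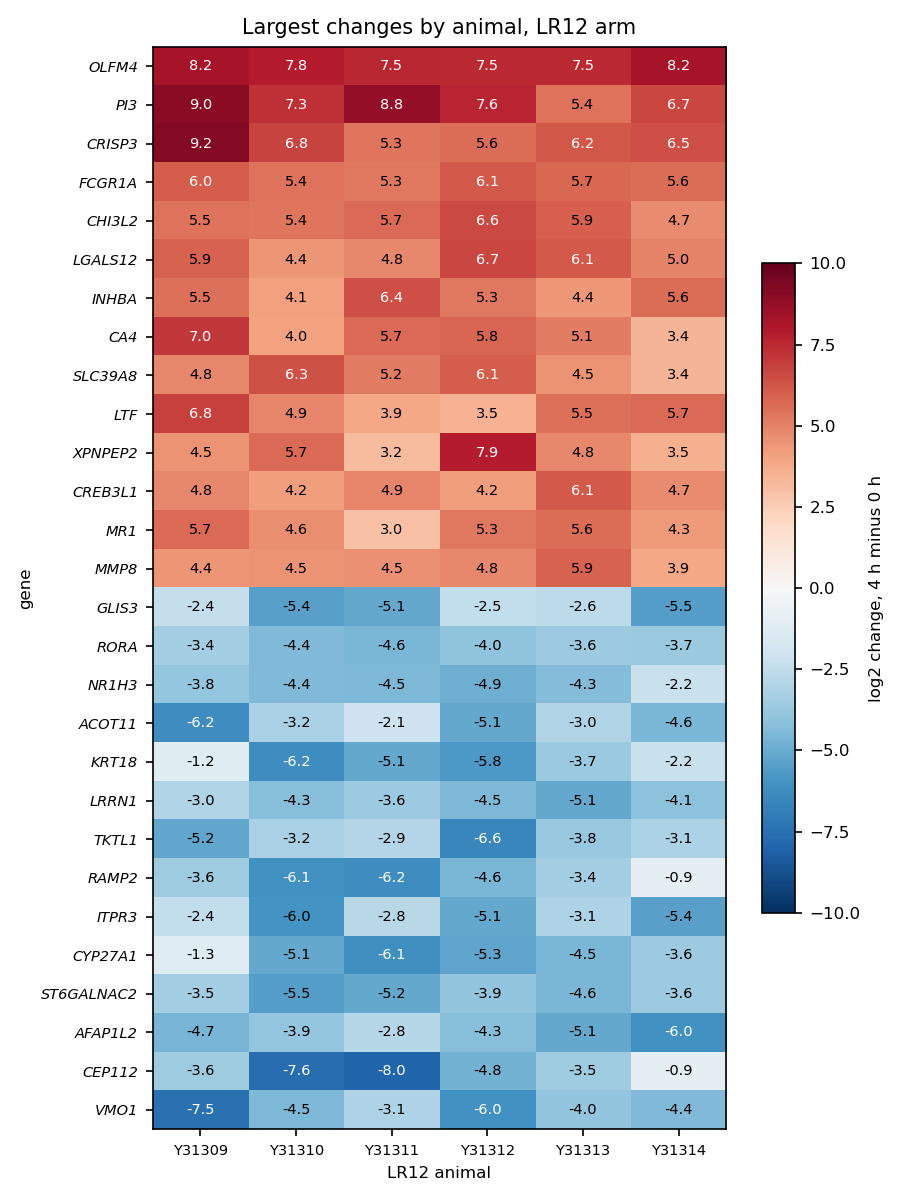
Change of each LR12 animal, 4 h minus 0 h on the log2 scale, for the 14 largest rises and 14 largest falls that were called under both scalings and went 1 way in 6 of 6 animals; columns are animals, rows are genes and colours run from blue (lower at 4 h) to red (higher at 4 h). OLFM4 lay between 7.47 and 8.24 in the 6 animals, whereas CEP112 ranged from -8.04 to -0.90.

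The largest falls included lymphocyte, monocyte and signalling genes. In most of the 14 the animals were spread more widely at 4 h, the hour with the lower level, than at 0 h. RORA, a nuclear receptor of T and innate lymphoid cells, was the most even of them, at 6.48, 5.10, 5.05, 5.29, 5.42 and 5.45 at 4 h, against 9.86, 9.54, 9.65, 9.28, 9.04 and 9.17 at 0 h. Only Y31309 stayed above 6 at 4 h. The change was -3.96 ± 0.27 (adjusted p = 1.59e-14), and all 7 kept probe sets of RORA changed in the same direction (-3.96 to -0.26). NR1H3, the oxysterol receptor LXR-alpha of monocytes and macrophages, had 6.49, 4.62, 4.68, 4.30, 4.54 and 5.55 at 4 h, against 10.32, 9.03, 9.18, 9.1998, 8.89 and 7.73 at 0 h, with no overlap. CYP27A1, the sterol 27-hydroxylase whose products activate that receptor, had 6.46, 2.63, 1.40, 2.13, 2.99 and 2.70 at 4 h, against 7.74, 7.73, 7.51, 7.39, 7.53 and 6.31 at 0 h. Its groups overlapped through Y31309 at 4 h and Y31314 at 0 h, although each animal was lower at 4 h, and the change was -4.31 ± 0.65. ITPR3, an inositol trisphosphate receptor that releases calcium from the endoplasmic reticulum, had 5.99, 1.76, 4.33, 1.97, 3.39 and 1.85 at 4 h, against 8.43, 7.75, 7.10, 7.08, 6.49 and 7.29 at 0 h. The 4 h values spread over more than 4 units, and 3 of them lay near the 20th percentile of the arrays. All 4 kept probe sets of ITPR3 fell, but by unlike amounts (-4.14 to -0.15). ST6GALNAC2, a sialyltransferase, stayed well above the 20th percentile at both hours, at 8.06 ± 0.77 at 4 h and 12.44 ± 0.46 at 0 h. LRRN1, a leucine-rich repeat membrane protein, averaged 6.08 ± 0.87 at 4 h and 10.18 ± 1.25 at 0 h. VMO1 averaged 3.34 ± 1.67 at 4 h and 8.25 ± 1.502 at 0 h, but its other kept probe set changed by 0.24, so its fall rests on 1 of 2. The remaining members of the 14 largest falls were CEP112 (-4.73), AFAP1L2 (-4.46), RAMP2 (-4.13), TKTL1 (-4.13), KRT18 (-4.04), ACOT11 (-4.04) and GLIS3 (-3.91). CEP112 stood at 3.79, -1.13, -0.67, 1.43, 2.95 and 4.43 at 4 h, around the mean 20th percentile of 1.78, so the size of its fall is not defined. Its other kept probe set changed by -0.51. AFAP1L2, RAMP2, ACOT11 and GLIS3 also had single 4 h values below 1.78, down to 0.85, 0.73, 1.20 and 0.76. This limits the size of their falls. The smallest change among kept probe sets was -0.63 for TKTL1, -0.53 for ACOT11 and -0.89 for GLIS3.

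Gene groups were followed through 38 lists, written with earlier results of these data known, so their counts describe and do not test. Counts as deposited are to be read against the 13.0% of all genes that rose and the 29.9% that fell. Counts after centring are to be read against 18.3% and 21.2%. Each list median has the all-gene median subtracted. Of the 250 genes named by rule, 138 had at least 2 kept probe sets, and in 16 of these 1 or more probe sets changed in the other direction. Such genes are marked where they are named. Probe sets of the same direction could still differ in size. Changes ran from -3.57 to -0.06 for CLEC2D, -2.42 to -0.15 for TOP2A, -2.51 to -0.10 for PTGS1 and -2.02 to -0.06 for NDUFS7. They ran from 0.08 to 2.28 for SOCS1 and from 0.14 to 1.41 for IFIH1.

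**Figure D2:**
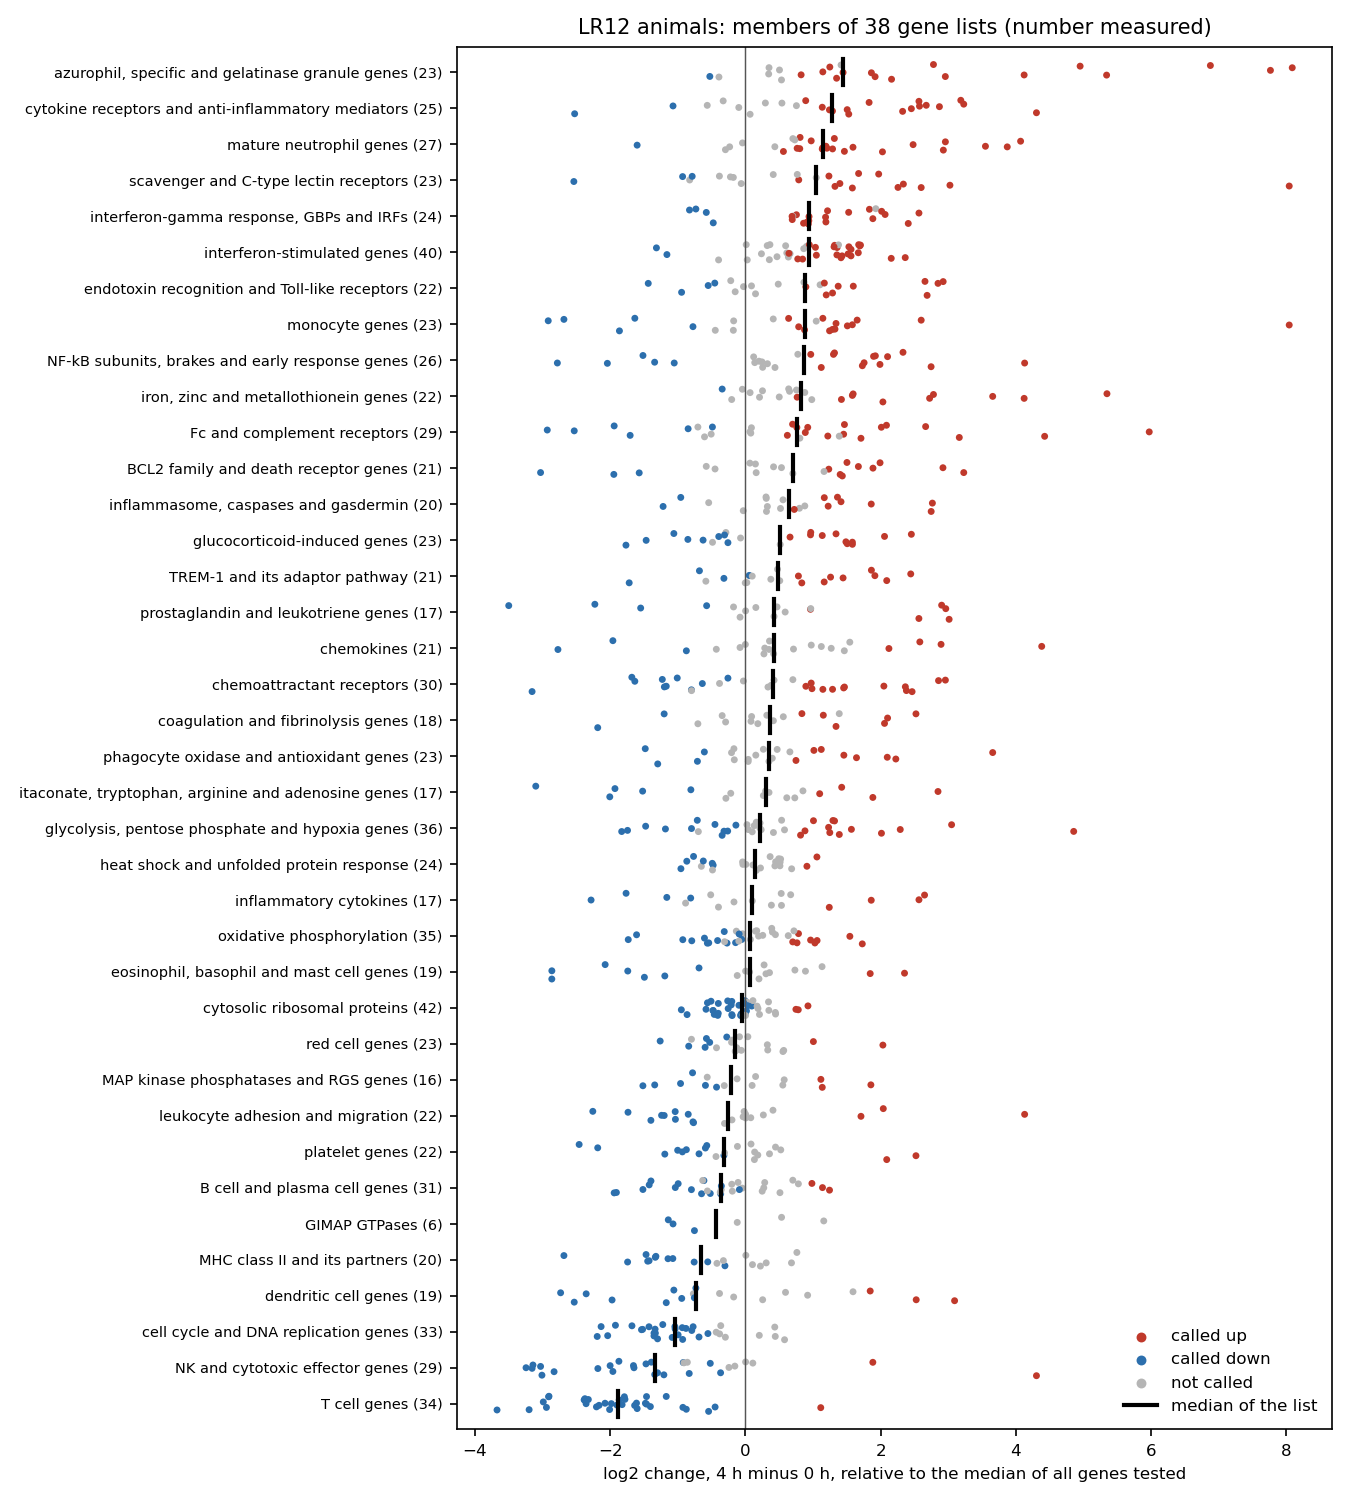
Change of every measured member of the 38 lists in the LR12 animals, 4 h minus 0 h on the log2 scale, relative to the median of all 16020 genes; each point is a gene, red for called up, blue for called down and grey for not called, and black bars are list medians. The granule list has the highest median (1.44) and the T cell list the lowest (-1.88).

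Among ligands, single inflammatory cytokines went both ways at 4 h. Of 17 inflammatory cytokines measured, 4 rose and 4 fell as deposited, and 6 rose and 4 fell after centring. Of all genes, 13.0% rose and 29.9% fell as deposited, and 18.3% and 21.2% after centring. Counts over so few genes are therefore no result about the list. OSM, oncostatin M of the IL-6 family, averaged 7.77 ± 0.27 at 4 h and 5.41 ± 0.38 at 0 h, a change of 2.36. IL1B, interleukin 1 beta, had 10.14, 10.93, 11.23, 11.35, 11.16 and 10.74 at 4 h, against 7.66, 8.93, 8.24, 8.70, 8.81 and 9.52 at 0 h. No value overlapped, and the change was 2.28 ± 0.33. IL18 rose by 1.58, a call that was lost in the 4 animals with low controls (adjusted p = 0.0506). IL27 rose by 0.95 and was no longer called without the animal block (adjusted p = 0.0558) or with only the 24 arrays of the LR12 arm (adjusted p = 0.06). Leaving out Y31309, Y31310, Y31311 or Y31313 also lost the IL27 call (adjusted p = 0.0523 to 0.0874). TNF had 6.01, 5.59, 5.28, 5.39, 4.38 and 4.91 at 4 h, against 5.71, 4.14, 5.30, 5.03, 4.90 and 5.89 at 0 h. Its hours overlapped fully, with 3 animals up and 3 down and a change of 0.10 ± 0.35 (adjusted p = 0.856). IL6 averaged 2.45 ± 1.39 at 4 h and 3.62 ± 1.13 at 0 h, near the bottom of the arrays, with a change of -1.17 ± 0.71 that was not called (adjusted p = 0.194). IL15, which sustains NK and memory T cells, fell by 2.57, and MIF, macrophage migration inhibitory factor, fell by 2.05. IL10 did not pass the filter on low values and was not tested.

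Single chemokines also went both ways, with 4 of 21 up and 3 down (7 and 3 after centring). As deposited, 13.0% of all genes rose and 29.9% fell, and after centring 18.3% and 21.2%. These counts too are no result about the list. CXCL10, an interferon-induced attractant of T and NK cells, had 8.13, 10.40, 10.02, 11.32, 10.16 and 8.66 at 4 h, against 6.16, 5.25, 5.40, 6.08, 5.31 and 5.91 at 0 h. The 4 h values spanned more than 3 units, with Y31309 and Y31314 lowest, yet all exceeded the 0 h values, and the change was 4.10 ± 0.47. CCL4, an attractant of monocytes and T cells, rose by 2.61, and CCL2, the main attractant of CCR2-bearing monocytes, by 2.29 ± 0.51. CCL8, another monocyte attractant, rose by 1.84 ± 0.65 with overlapping groups, and this call was lost without the animal block (adjusted p = 0.122). It was also lost in the 4 animals with low controls (adjusted p = 0.0728) and without Y31309, Y31310 or Y31312 (adjusted p = 0.0508 to 0.103). CXCL8, the neutrophil attractant interleukin 8, was higher in 6 of 6 animals, by 0.69 ± 0.32, which was not called as deposited (adjusted p = 0.0783) and was called after centring (adjusted p = 0.0104). CCL5, a product of T and NK cells, fell by 3.06, with 9.195 ± 0.46 at 4 h and 12.25 ± 0.26 at 0 h. XCL1, made by NK and CD8 T cells, fell by 2.24.

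Receptors and brakes for these cytokines rose more uniformly than the cytokines. Of 25 cytokine receptors and anti-inflammatory mediators, 16 rose and 2 fell, with a median of 1.29. IL18RAP, the accessory chain of the IL-18 receptor, had 10.44, 10.17, 9.83, 10.57, 10.63 and 10.47 at 4 h, against 5.41, 5.73, 6.19, 6.09, 6.78 and 7.82 at 0 h. The 4 h range was under 1 unit and the 0 h range over 2, and the change was 4.02 ± 0.29. IL1RN, the antagonist of the IL-1 receptor, rose by 2.90 to 12.67 ± 0.18 at 4 h, against 9.77 ± 0.35 at 0 h, and the decoy receptor IL1R2 rose by 2.17. CISH and SOCS1, feedback inhibitors of JAK-STAT signalling, rose by 2.94 and 2.28. IL4R, the IL-4 receptor chain, rose by 2.58. SIGIRR, a brake on IL-1 and Toll-like receptor signalling, fell by 2.81, and TGFB1 by 1.36. Among 26 NF-kB subunits, brakes and early response genes, 13 rose and 5 fell (14 and 3 after centring). ICAM1, the adhesion ligand of neutrophil integrins, rose by 3.84, with 10.33 ± 0.34 at 4 h and 6.49 ± 0.36 at 0 h. TNFAIP3 (A20), which ends NF-kB signalling, rose by 2.04, IER3 by 2.46 and the inhibitor NFKBIA by 0.68. FOS and NR4A2, immediate early transcription factors, fell by 3.07 and 2.33.

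The endotoxin receptor complex rose as a whole. TLR4 had 12.15, 12.15, 12.24, 12.26, 12.29 and 12.14 at 4 h, against 10.23, 10.99, 11.59, 11.46, 11.79 and 11.70 at 0 h. The 6 animals had converged to within 0.2 units at 4 h, and the change was 0.91 ± 0.18. LY96 rose by 2.64 and CD14 by 1.003. Of 22 genes for endotoxin recognition and Toll-like receptors, 10 rose and 4 fell. IRAK3, the decoy kinase that dampens Toll-like receptor signalling, rose by 2.40, IRAK2 by 2.37 and TLR1 by 1.31. LY86 (MD-1), the partner of CD180 on B cells and monocytes, fell by 1.72. In the inflammasome list 8 of 20 rose and 2 fell (13 and 2 after centring), among them CASP5 (2.48), an intracellular endotoxin sensor, NLRC4 (2.46) and CASP1 (1.13) up, and NLRP1 (-1.502) and the pyrin partner PSTPIP1 (-1.24) down. The 0 h values of CASP5 varied widely (SD 2.29), and its groups overlapped.

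TREM1 itself did not change detectably. Its values were 12.22, 10.42, 10.27, 12.41, 12.18 and 12.24 at 4 h, against 10.47, 10.56, 11.41, 12.20, 12.49 and 12.06 at 0 h. At 4 h Y31310 and Y31311 stood more than 1 unit below the other 4 animals, and at 0 h Y31309 and Y31310 were the low ones. High B. subtilis controls were found on the low arrays of Y31310 at both hours and of Y31311 at 4 h. Y31309 at 0 h was low with low controls. The cause of the low TREM1 values was not tested. The change was 0.09 ± 0.30 (adjusted p = 0.845), with 3 animals up and 3 down. It was 0.08 with the control level as a covariate (adjusted p = 0.858) and 0.46 in the 4 animals with low controls (adjusted p = 0.35). TYROBP, the adaptor of TREM-1, averaged 13.15 ± 0.16 at 4 h and 13.43 ± 0.21 at 0 h (change -0.29, adjusted p = 0.0529). TREML1, from which LR12 is derived, had 9.41, 9.91, 7.99, 9.74, 9.41 and 9.49 at 4 h, against 9.51, 10.71, 8.60, 10.47, 10.09 and 10.19 at 0 h. It was lower at 4 h in 6 of 6 animals, by -0.60 ± 0.25 (adjusted p = 0.0443), but the call was lost after centring (adjusted p = 0.32) and without the animal block (adjusted p = 0.313). The TREML1 call was lost in most other alternatives, as with the block as a random effect (adjusted p = 0.157) and in the 4 animals with low controls (adjusted p = 0.198). Leaving out any 1 animal but Y31309 lost it too (adjusted p = 0.0846 to 0.109). Of the 21 genes of TREM-1 and its pathway, 9 rose and 4 fell (11 and 2 after centring). TREM2, a lipid-sensing relative of TREM-1 in macrophages, rose by 2.16, and TREML2, found on neutrophils and lymphocytes, by 1.80. PGLYRP1, a granule peptidoglycan-binding protein and TREM-1 ligand, rose by 1.58, and the signalling protein VAV1 by 1.63. HCST (DAP10), the adaptor of NKG2D in NK and T cells, fell by 2.00.

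Interferon-related genes rose broadly and by modest amounts. Of 40 interferon-stimulated genes, 22 rose and 2 fell (28 and 1 after centring), with a median of 0.94. IFIT5 rose by 2.08, TRIM22 by 1.87 and the RNA sensor IFIH1 by 1.41, while ZBP1, a sensor of nucleic acids in Z form, fell by 1.60. EIF2AK2 (PKR) was higher by 1.42, a call that was lost without the animal block (adjusted p = 0.0511). Genes of the interferon-gamma response, with GBPs and IRFs, rose in 18 of 24 cases and fell in 4. JAK2 rose by 2.12, and the receptor chains IFNAR1 and IFNGR2 by 1.78 and 1.73, whereas the transcription factors IRF3 and IRF8 fell by 1.11 and 1.02. IDO1, which breaks down tryptophan, reached 13.41 ± 0.10 at 4 h, against 11.81 ± 0.78 at 0 h.

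Neutrophil genes rose in most cases. Of 23 granule genes, 16 rose and 1 fell (16 and none after centring), and of 27 genes of mature neutrophils 20 rose and 1 fell (23 and 1). Relative medians were 1.44 and 1.14, and that of the granule list ran from 1.04 to 2.80 in single animals. HP, haptoglobin of specific granules, rose by 3.84 and LCN2, a siderophore-binding lipocalin, by 2.50. VNN1, a pantetheinase, rose by 3.78 and PROK2, prokineticin 2, by 3.59. S100A12, a calgranulin, had 11.45, 10.38, 9.93, 10.68, 11.13 and 10.71 at 4 h, against 7.01, 6.85, 7.16, 7.13, 8.22 and 8.33 at 0 h. Its lowest 4 h value exceeded its highest 0 h value, and the change was 3.26 ± 0.27. FPR2, a formyl peptide receptor, rose by 2.67. Of the 5 defining neutrophil markers CSF3R, S100A8 and S100A12 rose, while FCGR3B and CXCR2 were not called as deposited, and all 5 lay above the array median on all 12 arrays. MME (CD10), lost from immature neutrophils, fell by 1.89.

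Monocyte and phagocyte genes went both ways. Of 23 monocyte genes 13 rose and 5 fell. CD14 had 12.69, 12.69, 11.94, 12.81, 12.49 and 12.88 at 4 h, against 10.81, 12.05, 11.44, 11.91, 11.95 and 11.30 at 0 h. All 6 animals rose, by 1.003 ± 0.19, with a slight overlap of the hours through Y31311 at 4 h and Y31310 at 0 h. CLEC4A, a C-type lectin receptor, rose by 2.31, MS4A6A by 1.37 (5 of its 6 probe sets) and the haemoglobin scavenger receptor CD163 by 1.30. CSF1R, the receptor that maintains monocytes, had 8.40, 8.51, 7.56, 7.60, 8.21 and 8.08 at 4 h, against 10.51, 11.21, 10.08, 10.08, 10.53 and 8.84 at 0 h. It fell by 2.15 ± 0.36 with no overlap. CX3CR1, the fractalkine receptor of patrolling monocytes and cytotoxic lymphocytes, fell by 1.92. MS4A7 fell by 3.20, and the costimulatory ligand CD86 by 2.97. Among 29 Fc and complement genes, 15 rose and 6 fell: the complement regulators CD59 and CD46 rose by 4.14 and 2.38, factor B (CFB) by 2.88, and C1QC and the IgE receptor chain FCER1A fell by 3.21 and 2.82. In the scavenger and lectin list 12 of 23 rose, led by CLEC4D (2.74) and the mannose receptor MRC1 (2.05), and 3 fell, among them CLEC2D (-2.82).

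T cell genes fell almost without exception. Of 34 measured, 33 fell and 1 rose (31 and 1 after centring). For 30 of them the 4 h and 0 h values did not overlap, against 19.4% of all genes tested. The relative median was -1.88, and in single animals it ran from -2.15 to -1.53. LCK, the kinase that starts T cell receptor signalling, had 8.76, 6.30, 7.19, 6.503, 7.58 and 7.55 at 4 h, against 11.27, 10.56, 11.002, 10.64, 10.71 and 10.59 at 0 h. Every 4 h value was below every 0 h value, Y31309 being highest at both hours, and the change was -3.48 ± 0.32. STAT4, which carries IL-12 signals, averaged 4.85 ± 0.16 at 4 h and 8.12 ± 0.37 at 0 h, and GATA3, the factor of type 2 helper cells, 6.59 ± 0.96 at 4 h and 9.82 ± 0.45 at 0 h. The 1 riser was LCP2 (SLP-76), an adaptor shared with myeloid cells and platelets, higher by 0.83 with overlapping groups and not called without the block (adjusted p = 0.196). All 4 T cell markers measured (CD3D, CD3G, CD2 and TRAT1) fell. Of 6 GIMAP GTPases, lymphocyte survival genes, 3 fell, GIMAP1 by 1.43, GIMAP6 by 1.36 and GIMAP8 by 1.04.

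NK and cytotoxic genes followed, with 21 of 29 down and 2 up (19 and 2 after centring). FASLG, the death ligand of cytotoxic cells, had 4.78, 3.11, 4.38, 1.77, 2.37 and 3.52 at 4 h, against 7.42, 6.995, 6.61, 6.49, 6.16 and 6.13 at 0 h. It fell by 3.31 ± 0.34 with no overlap. GZMH, a granzyme, fell by 3.29, NCAM1 (CD56) by 3.43 and S1PR5, the receptor that lets NK cells leave marrow and nodes, by 3.44. The 5 kept probe sets of NCAM1 changed by -3.43 to -0.05. S1PR5 had values down to 0.29 at 4 h, below the mean 20th percentile of 1.78, which limits the size of its fall. NKG7, a granule membrane protein, rose by 1.60 (not called without the block, adjusted p = 0.0644, or without Y31312, adjusted p = 0.0629). All 5 NK markers (KLRD1, KLRF1, NCR1, GNLY and PRF1) fell. B cell genes were less uniform: 14 of 31 fell and 3 rose (10 and 4 after centring). CD79A of the B cell receptor fell by 2.19, EBF1 by 1.80 and CR2 by 2.23, whereas MS4A1 (CD20) had 8.65, 6.96, 7.65, 7.38, 6.88 and 7.45 at 4 h, against 8.43, 7.26, 7.90, 8.14, 7.61 and 7.64 at 0 h. That difference, -0.33 ± 0.17, was not called (adjusted p = 0.125), but the mean of all MS4A1 probe sets was (-0.78, adjusted p = 0.000191).

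Antigen presentation through MHC class II fell in 12 of 20 genes under both scalings, and none rose as deposited (2 after centring). CD74, the invariant chain, fell by 2.03, HLA-DMA by 1.75 and HLA-DPA1 by 1.73, the last with 1 of 3 probe sets against it. HLA-DRA had 13.09, 12.47, 12.63, 12.48, 12.59 and 12.30 at 4 h, against 13.22, 13.31, 13.05, 13.33, 13.36 and 12.80 at 0 h, a smaller fall of 0.59 ± 0.11. Dendritic cell genes fell in 9 of 19 cases and rose in 3. LILRA4 and PLD4 of plasmacytoid dendritic cells fell by 2.64 and 3.02 and ZBTB46 of conventional ones by 2.26, while BATF3 rose by 2.81 and the maturation gene LAMP3 by 2.24. Of 19 eosinophil, basophil and mast cell genes, 7 fell, among them KIT (-2.02), CMA1 (-3.15) and CPA3 (-3.15), and 2 rose. As deposited, 29.9% of all genes fell and 13.0% rose, so these counts are no result about the list. Neither of the basophil markers CPA3 and HDC lay above the array median on all 12 arrays.

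Of 22 platelet genes 10 fell and 2 rose (8 and 2 after centring). PF4 and ITGA2B fell by 1.16 and 0.97, and PPBP was not called (change 0.07). VWF fell by 2.47 and CD9 by 1.48, but another probe set of each went the other way. THBS1, thrombospondin of platelets and monocytes, rose by 2.24. Of 23 red cell genes 7 fell as deposited and 3 after centring, with 2 and 3 rises. As deposited, 29.9% of all genes fell and 13.0% rose, so these counts are no result about the red cell list. Of the red cell markers ALAS2 fell by 0.47 as deposited and was not called after centring, SLC4A1 was not called (change 0.27), and HBB was not called as deposited (change 0.04) and was called up after centring. In this list the membrane protein genes EPB41 and XK fell by 1.12 and 1.55. TFRC, the transferrin receptor, rose by 1.75.

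Metabolic and growth genes showed member-by-member differences. In the cell cycle and replication list 25 of 33 fell and none rose (22 and none after centring), with a median of -1.04. MCM6, a helicase subunit, fell by 2.48, TOP2A by 2.42, PTTG1 by 2.32 and RRM1, the large subunit of ribonucleotide reductase, by 2.21. Ribosomal protein genes fell in 27 of 42 cases as deposited but in 12 after centring, and their median was -0.05 relative to all genes. RPL3 fell by 1.23 and RPS7 rose by 0.64 (adjusted p = 0.0574 in the 4 animals with low controls). In the oxidative phosphorylation list 8 of 35 rose and 13 fell (10 and 7 after centring), from COX7A2 (1.26) to NDUFS7 (-2.02). Glycolysis and hypoxia genes rose in 13 of 36 cases and fell in 11 (16 and 6 after centring). PFKFB2, which makes the activator of phosphofructokinase, had 10.84, 11.005, 10.41, 11.29, 11.36 and 11.06 at 4 h, against 5.91, 6.21, 6.59, 6.17, 6.45 and 7.23 at 0 h. It rose by 4.57 ± 0.32 in 3 of its 4 probe sets, with the remaining one at -0.07. HK3, the phagocyte hexokinase, rose by 2.00, LDHA by 1.73 and adrenomedullin (ADM) by 2.76, while ALDOC and ENO2, isoforms typical of neural tissue, fell by 2.11 and 2.03.

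Among lipid mediator genes 5 of 17 rose and 4 fell (5 and 3 after centring). PTGS2, the inducible cyclooxygenase, had 9.89, 11.12, 11.57, 10.68, 10.59 and 10.26 at 4 h, against 7.07, 8.14, 7.98, 7.63, 7.73 and 9.21 at 0 h. Its change was 2.73 ± 0.33, with Y31314 starting highest. ALOX5, which begins leukotriene synthesis, rose by 2.68, while PTGS1, the constitutive cyclooxygenase, fell by 2.51 and PLA2G7, which degrades platelet-activating factor, by 3.78. HMOX1, heme oxygenase 1, had 11.16, 11.81, 11.73, 11.82, 11.72 and 11.40 at 4 h, against 8.87, 8.36, 8.24, 8.20, 7.83 and 7.92 at 0 h, a rise of 3.37 ± 0.39. Of 22 iron, zinc and metallothionein genes 10 rose and 1 fell (14 and none after centring). Adenosine deaminase (ADA) fell by 3.38 and the adenosine receptor ADORA2B by 2.29. Among BCL2 family and death receptor genes 9 of 21 rose and 3 fell: BCL2A1, an NF-kB-induced survival protein, rose by 2.64 and FAS by 1.71, whereas BCL2 itself fell by 2.23 (3 of 4 probe sets). The glucocorticoid list was divided, with 11 of 23 up and 8 down (11 and 4 after centring): FKBP5 rose by 1.30 and MAOA by 1.77, and IRS2 and ZBTB16 fell by 2.05 and 1.75.

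Chemoattractant receptors rose in 13 of 30 cases (14 after centring), led by GPR84 (2.57), a receptor for medium-chain fatty acids, and fell in 10 (7 after centring), among them CXCR3 (-1.96) of effector T cells. Adhesion genes fell in 10 of 22 cases, with ITGA4 at -2.54 (3 of 4 probe sets), and rose in 3, with CD44 at 1.75. Coagulation genes rose in 6 of 18 cases and fell in 2, with protein S (PROS1) at 1.77, thrombomodulin (THBD) at 1.05 and PLAT at -1.49, the last not called in the 4 animals with low controls (adjusted p = 0.142). The oxidase and antioxidant list had 8 of 23 up and 4 down, with GPX3 at 1.94 and PRDX1 at -1.58. MAP kinase phosphatases and RGS genes had 3 of 16 up and 6 down, from RGS18 (1.57) to RGS10 (-1.80). Among heat shock genes 2 of 24 rose and 6 fell as deposited, and 5 rose and 4 fell after centring. As deposited, 13.0% of all genes rose and 29.9% fell, so the counts of these last 2 lists are no result about them. HSPA9 stood at -1.24 and DNAJB1, a co-chaperone, at 0.77. For orientation, the chosen probe sets of genes often used as reference moved little. ACTB changed by 0.10, B2M by 0.02 and the leukocyte gene PTPRC (CD45) by 0.15 (4 of 5 probe sets). None was called as deposited and all 3 were called up after centring. Probe sets of PTPRC ran from -0.46 to 1.13, and a B2M probe set rose by 0.66. PTPRC was called with the mean of its probe sets (0.59, adjusted p = 0.000627) and after quantile normalization (0.16, adjusted p = 0.018).

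Set against 2 h and 8 h of the same animals, 4 h was a point of passage for many genes. At 4 h, 1414 genes were higher and 1795 lower than at 2 h (8.83% and 11.2% of genes tested), and after centring 2037 and 851 (12.7% and 5.31%). From 4 h to 8 h, 1209 genes rose and 790 fell (7.55% and 4.93%), and after centring 1054 and 612 (6.58% and 3.82%). The share of genes that differed from 0 h was 38.5% for 2 h and 37.2% for 8 h. These comparisons share the 4 h arrays with the one above, so each gene's values are given side by side. STK3 (MST2), a kinase of the Hippo pathway, averaged 6.88, 5.74, 10.88 and 10.002 at the hours 0, 2, 4 and 8. Its difference between 2 h and 0 h was not called (-1.14), and it then rose by 5.14 ± 0.50 between 2 h and 4 h (adjusted p = 8.54e-10). FAR2, a fatty acyl-CoA reductase, followed that course at 7.16, 6.09, 9.34 and 9.12, as did LY96 at 9.13, 8.17, 11.77 and 11.83 and TMPO, a nuclear lamina protein, at 8.78, 8.14, 11.44 and 10.63. FCGR1A climbed in both steps, by 3.02 to 2 h and by a further 2.66 to 4 h. OLFM4, in contrast, had gained 6.49 by 2 h, and its further 1.31 ± 0.86 to 4 h was not called (adjusted p = 0.319). NAV3 and RALGPS1 fell between 2 h and 4 h by 3.95 and 3.16. ST6GALNAC2, at 12.44, 11.14, 8.06 and 9.60, made most of its fall in that step (-3.08 ± 0.53).

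Another set of genes was already on the way back at 4 h. IL1B averaged 8.64, 12.36, 10.92 and 9.64 at the hours 0, 2, 4 and 8, and CCL2 4.03, 8.59, 6.33 and 5.03. TNF was higher at 2 h than at 0 h by 1.05 (adjusted p = 0.0148) and lower at 4 h than at 2 h by 0.95 (adjusted p = 0.0494). TNFAIP3 was lower at 4 h than at 2 h by 1.56 and NFKBIA by 1.14. CSF1R showed the mirror course, 10.21, 6.05, 8.06 and 10.18 over the 4 hours, and HLA-DRA likewise stood at 13.18, 12.04, 12.59 and 13.06. Some genes were highest at 4 h among the 4 hours sampled. CXCL10 averaged 5.69, 8.45, 9.78 and 4.35, with a fall of 5.44 ± 0.47 to 8 h. INHBA averaged 6.43, 11.28, 11.64 and 8.38. NR1H3 (9.06, 5.74, 5.03 and 9.17) and NDRG2 (7.73, 4.16, 3.95 and 7.21) were lowest at 4 h and rose to 8 h by 4.14 and 3.26. RORA and LCK were lowest at 4 h too, but at 8 h both were still below 0 h, by 3.15 and 2.77. The plot of time courses shows these patterns by animal.

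**Figure D3:**
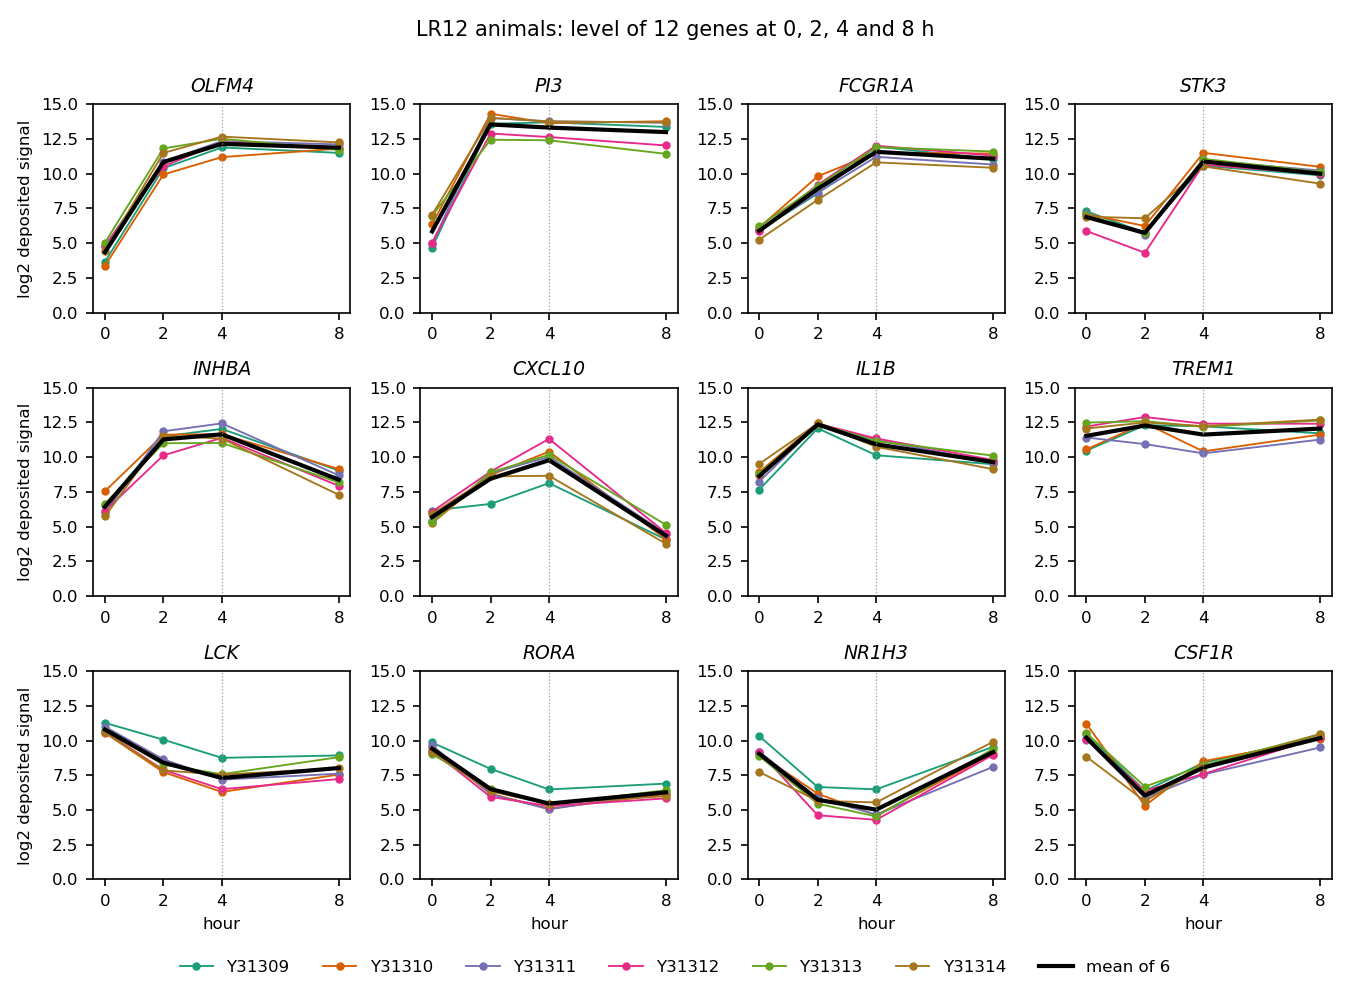
Level of 12 genes in the 6 LR12 animals at 0, 2, 4 and 8 h (log2 of the deposited signal); each coloured line is an animal, the black line their mean, and the dotted line marks 4 h. CXCL10 peaked at 4 h with a mean of 9.78, CSF1R reached its lowest mean (6.05) at 2 h, and TREM1 split into higher and lower animals at 4 h.

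Whether the LR12 animals changed more or less from 0 to 4 h than the control animals was tested as a difference of changes. The control animals were not alike, and this touches every such result. Over the 28 genes with the largest changes in the LR12 arm, the median size of the change was 4.35 to 5.26 in the 6 LR12 animals. In the peptide control arm it was 4.16, 3.93 and 3.72 in Y31306, Y31307 and Y31308, but 0.603 in Y31305. In the vehicle arm it was 4.23 in Y31303, against 0.693, 1.05 and 0.340 in Y31301, Y31302 and Y31304. These genes were chosen for their change in the LR12 animals, so the order of the arms says nothing. The cause of the split within each control arm was not tested.

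Within their own arm, peptide control animals had 925 rises and 2080 falls from 0 to 4 h (5.77% and 13.0% of genes tested), and 1432 and 665 after centring (8.94% and 4.15%). Vehicle animals had 85 rises and 93 falls (0.531% and 0.581%), and 251 and 26 after centring (1.57% and 0.162%).

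Against the peptide control, 90 genes differed in their change (0.562% of 16020), 19 in the positive direction (0.119%) and 71 in the negative (0.443%). This count was unstable. It was 0 without the animal block (1142 genes at an unadjusted p below 0.05), 47 after centring (0.293%) and 0 without Y31305 of the peptide control (1494 genes at an unadjusted p below 0.05). The count was also 1 without Y31308 of the peptide control, 6 without Y31312 and 12 without Y31313 of the LR12 arm. RORA changed by -3.96 ± 0.48 (SD, n = 6) in LR12 animals and by -1.47 ± 1.32 (SD, n = 4) in peptide control animals, a difference of -2.49 ± 0.42 (SE, adjusted p = 0.00657). Without Y31305 that difference was -2.04. ITPR3 changed by -2.44, -5.98, -2.77, -5.10, -3.11 and -5.45 in LR12 animals, against -0.52, -0.67, -1.64 and -0.85 in peptide control animals. The arms did not overlap, and the difference was -3.22 ± 0.61 (adjusted p = 0.0126), or -3.09 without Y31305. AFAP1L2, an adaptor of Src family kinases, differed by -3.00, BCKDHB, of branched-chain amino acid breakdown, by -3.03, and FASLG by -2.46. In LR12 animals at 4 h AFAP1L2 and BCKDHB had values down to 0.85 and 0.19. These lie below the mean 20th percentile of 1.78, which limits the size of both differences. On the positive side SLC39A8 changed by 4.82, 6.34, 5.17, 6.07, 4.53 and 3.43 in LR12 animals, against 0.90, 3.53, 2.91 and 2.68 in peptide control animals. Its arms overlapped slightly, and the difference was 2.56 ± 0.56 (adjusted p = 0.0253), or 2.02 without Y31305. CSGALNACT1, a chondroitin sulfate synthesis enzyme, differed by 2.27, PFKFB2 by 2.03, IL18RAP by 2.00 and BCL2A1 by 1.95. For BCL2A1 the difference without Y31305 was 1.32.

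The genes most tied to the target and to endotoxin were not among those 90. The difference of changes from the peptide control was 0.82 ± 0.48 for TREM1 (adjusted p = 0.462), 0.72 ± 0.52 for IL1B (adjusted p = 0.591), 0.52 ± 0.56 for TNF (adjusted p = 0.751) and 0.35 ± 0.81 for CCL2 (adjusted p = 0.906). For CXCL10 it was 2.32 ± 0.74 (adjusted p = 0.121) and for LCK -1.60 ± 0.50 (adjusted p = 0.119). A p that misses the threshold does not show that the arms changed alike, and with errors of this size a difference of more than 1 unit for CCL2 could not have been told from none.

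**Figure D4:**
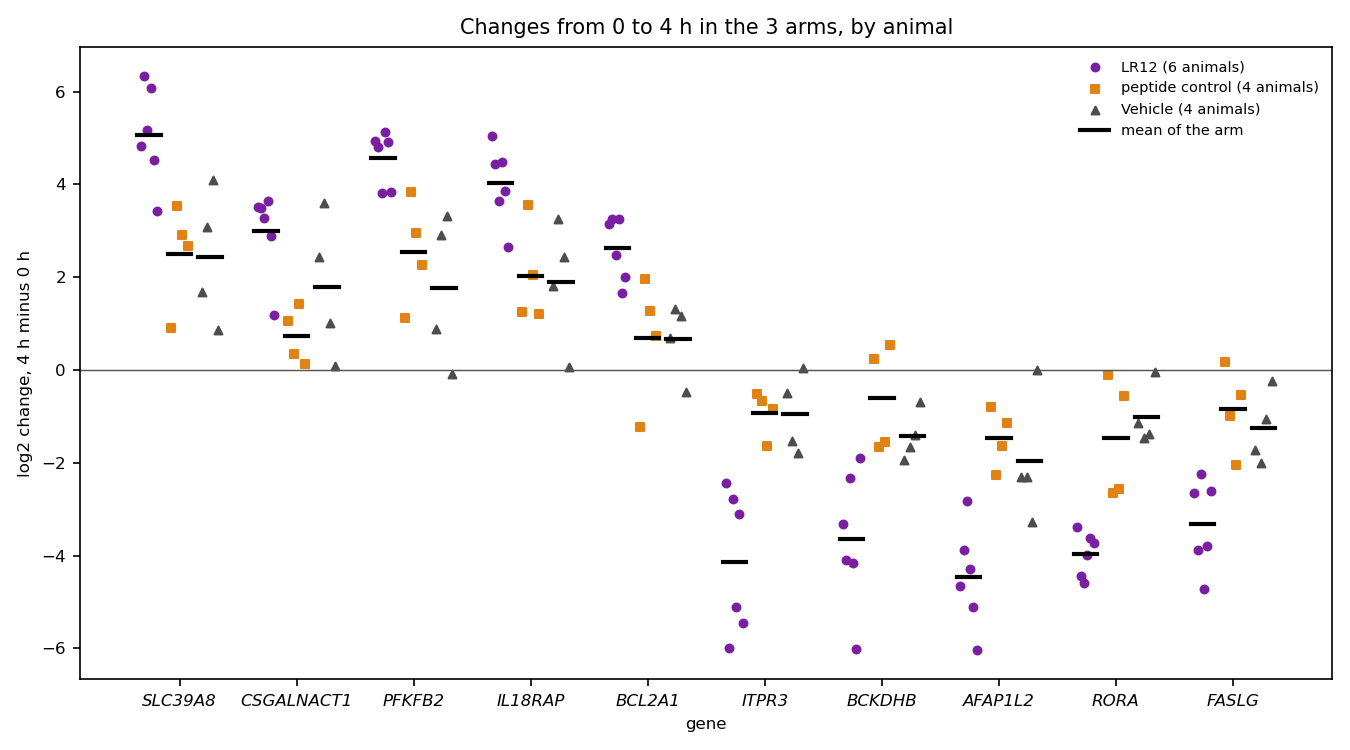
Change of each animal from 0 to 4 h (log2) in LR12 animals (circles), peptide control animals (squares) and vehicle animals (triangles), for the 5 largest differences from the peptide control in each direction; black bars are arm means. ITPR3 and FASLG do not overlap between LR12 and peptide control animals, and for SLC39A8 and PFKFB2 the highest peptide control animal reaches the range of the LR12 animals.

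Against vehicle, 1890 genes differed in their change (11.8%), 567 in the positive (3.54%) and 1323 in the negative direction (8.26%), and again the count moved with single animals: it was 535 without Y31304, 2727 without Y31303 and 35 without the animal block. After centring it was 1343 (8.38%). Both contrasts use the same LR12 arrays and are not independent. RAB25, a small GTPase of vesicle recycling, changed by 5.38, 3.49, 3.64, 4.95, 4.70 and 4.07 in LR12 animals, against -2.63, -1.83, 2.64 and -0.24 in vehicle animals, a difference of 4.88 ± 0.70 (adjusted p = 4.52e-05). MARCO changed by 6.32 to 8.59 in LR12 animals, and by 0.13, 1.05, 6.37 and -0.12 in vehicle animals, where Y31303 lay inside the LR12 range. LRRN1 differed by -3.86 ± 0.57, with vehicle changes of 0.73, 0.62, -3.38 and 1.06. Differences for OLFM4 (5.87), CRISP3 (5.58) and PI3 (5.22) rested on the same 3 vehicle animals: without Y31303 they were 8.30, 7.78 and 7.10. RORA differed from vehicle by -2.95 and CXCL10 by 4.18, while TREM1 (-0.86, adjusted p = 0.261) and IL1B (1.34, adjusted p = 0.0846) were not called.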

How the data were processed

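Blood of 14 macaques was drawn into PAXgene tubes, and 50 ng of RNA per sample was amplified and labelled with a NuGEN whole blood kit, per the labels' protocols. The deposited values are MAS5 intensity signals on a linear scale, per the submitters' processing notes, with no version given. The 2% trimmed mean lay between 150.026 and 150.037 on all 56 arrays. Precision is set by how many arrays each group has. The probes were designed on human sequence and hybridised with macaque RNA, so base mismatches can lower a probe set's signal, and only differences within a gene are used.

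Signals were taken to log2. Of 54675 probe sets, the platform annotation gave a single gene symbol to 41097, more than 1 to 1801 and no symbol to 11777. Probe sets above the array median on at least 4 arrays were kept (38767), and each gene was represented by its probe set with the highest mean, which left 16020 genes; 13561 of these symbols were in the macaque gene table. No p-value rests on the macaque genome. The model, fitted to all 56 arrays in limma 3.58.1 (R 4.3.3) with 33 residual degrees of freedom, held arm and hour as groups and the animal as a block, with trend and robust moderation. Tests were two-sided, Benjamini-Hochberg adjusted over 16020 genes and called below 0.05. The code was tested on simulated data.

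The animal number in the titles pairs the hours. Deviations from group means correlated at 0.180 on average within an animal and at -0.0294 between animals, and 45 of 56 arrays matched best within their own animal. Nothing says that arrays are more than 1 sample of blood per animal and hour.

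Named genes were the 14 largest rises and falls called under both scalings, in 6 of 6 animals and above the 20th percentile, the leading called members of each of the 38 lists, a set of genes always given, and the 5 largest in each direction of the contrasts by hour and by arm. Members and lists were chosen with earlier results of these data known. Alternatives covered the block, the scaling, an offset of 16, the filter, the probe set rule, the moderation, the arrays fitted, the array controls and each animal left out. The subset of 4 animals with low controls was chosen after seeing the data.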

Additional observations from a re-analysis of the deposited data

Results flagged for a closer look

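Among 160 groups of 6 LR12 arrays checked, over 75 genes and the array measures, 13 had a sample standing apart from the other 5 by Dixon's criterion, and chance alone flags about 1 in 20. On the arrays themselves, the 20th percentile at 4 h was highest in Y31314 (2.63), the B. subtilis controls at 0 h were highest in Y31310 (10.28), and the GAPDH difference between the 3' and 5' ends at 0 h was lowest in Y31311 (0.80). Y31309 stood apart at 4 h for CYP27A1 (6.46) and RORA (6.48), both high. Y31314 stood apart at 0 h for CYP27A1 (6.31) and FCGR1A (5.25), both low. Y31311 was low at 4 h for TREML1 (7.99) and MARCO (7.56), and stood apart at 0 h for MR1 (7.61) and NAV3 (7.19). Y31310 was low at 4 h for CREB3L1 (8.66), and Y31312 was low at 0 h for STK3 (5.88).

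The change from 0 to 4 h differed between LR12 and peptide control animals, by the test of the difference itself, for 10 of 75 genes looked at. They were named for being the 5 highest and 5 lowest by this test among genes also called between 4 h and 0 h, so their number is fixed by that choice, and 0.562% of all genes passed it. The difference, LR12 minus peptide control, was 2.56 for SLC39A8, 2.27 for CSGALNACT1, 2.03 for PFKFB2, 2.00 for IL18RAP and 1.95 for BCL2A1. It was -3.22 for ITPR3, -3.03 for BCKDHB, -3.00 for AFAP1L2, -2.49 for RORA and -2.46 for FASLG. No gene of the whole table passed this test once Y31305 was left out (limma, 1494 genes at an unadjusted p below 0.05). Other animals mattered too: 1 gene passed without Y31308 of the peptide control, 6 without Y31312 and 12 without Y31313 of the LR12 arm.

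The same test against vehicle passed for 39 of the 75 genes, against 11.8% of all genes. The 75 include the leading genes of this contrast and the largest changes of the LR12 arm, so the share says nothing about them as a group. The positive differences, LR12 minus vehicle, were 5.90 for MARCO, 5.87 for OLFM4, 5.58 for CRISP3, 5.22 for PI3, 4.88 for RAB25, 4.86 for CHI3L2, 4.58 for LTF, 4.30 for FCGR1A, 4.29 for INHBA, 4.28 for XPNPEP2, 4.18 for CXCL10, 4.05 for CREB3L1, 4.00 for MMP8, 3.96 for LGALS12, 3.74 for MR1, 3.58 for CA4, 2.81 for PFKFB2, 2.72 for STK3, 2.63 for SLC39A8, 2.53 for CCL2, 2.13 for IL18RAP and 1.96 for BCL2A1. The negative ones were -4.89 for SALL2, -3.90 for KLHL25, -3.86 for LRRN1, -3.74 for S1PR5, -3.69 for VMO1, -3.53 for ST6GALNAC2, -3.49 for KRT18, -3.23 for TKTL1, -3.20 for CYP27A1, -3.20 for ITPR3, -3.18 for ACOT11, -2.95 for RORA, -2.61 for NR1H3, -2.49 for AFAP1L2, -2.45 for LCK, -2.21 for BCKDHB and -2.06 for FASLG. The size for MARCO and SALL2 is not defined, since their lower values lie below the 20th percentile of the arrays. Single 4 h values of LR12 animals also lay below the mean 20th percentile of 1.78 for S1PR5, KLHL25, ACOT11, CYP27A1, BCKDHB and AFAP1L2. This limits the size of their differences from either control arm.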

How the results depend on the processing

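The count of genes called between 4 h and 0 h, 6876, stayed between 5534 and 7194 over the alternatives, with 5899 without the animal block, 6333 after centring and 6258 to 6732 with 1 animal left out. The shift of the array median ran from -0.21 to -0.33 with 1 animal left out. Pairing by animal mattered more for the other contrasts. Without the block, 1846 genes were called between 4 h and 2 h, 909 between 8 h and 4 h, 0 for LR12 minus peptide control and 35 for LR12 minus vehicle. With the block as a random effect, the last 2 counts were 1 and 1125. With the 4 animals with low controls only, the 4 counts were 1712, 1254, 30 and 917. The 90 genes of LR12 minus peptide control became 47 after centring, 31 with the mean of a gene's probe sets, 38 without trend and robust moderation and 244 with the control level as a covariate. Leaving out 1 animal gave 0 to 168 for that contrast (0 without Y31305, 1 without Y31308, 6 without Y31312, 168 without Y31307). For LR12 minus vehicle it gave 535 to 2727 (535 without Y31304, 2727 without Y31303). Of 250 named genes, 240 kept direction and call without the block and 10 lost the call. With the 4 low-control animals 11 lost the call and 1 reversed, and with the mean of a gene's probe sets 6 lost it. Reversals met genes that were not called: TNF was -0.21 in the 4 low-control animals and -0.17 to 0.31 with 1 animal left out, TREM1 was -0.056 after quantile normalization and -0.24 to 0.34 with 1 animal left out, and B2M was -0.043 to 0.071. The causes were not tested. Probe sets near the 20th percentile limit the size of 43 rises and 100 falls, whose lower group lies below it.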
